A study of Mus musculus with 4 samples.

Results

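The genes described here encode proteins that tie the cytoskeleton of the smooth muscle cell together and anchor it to the cell membrane. They were the 10 genes Des, Vim, Flna, Actn1, Cnn2, Cald1, Csrp1, Vcl, Tln1 and Zyx, and a probe set belonged to a gene when the platform's probe table listed that symbol alone. Of these genes 9 had at least 1 probe set, 15 probe sets in all among the 12422 that were not controls. Cald1, the actin- and myosin-binding caldesmon of the thin filament, had no probe set of its own in that table and was not analysed here. The RNA came from the aortas of adult male C57BL/6J mice and was pooled. One group received rosiglitazone, a thiazolidinedione agonist of PPARγ, at a daily dose of 25 mg/kg for 21 days (arrays 1 and 2), and the other received vehicle over the same 21 days (arrays 3 and 4). Nothing in the labels tells whether arrays within a group were made from different pools, so the p-values cover no more than array-to-array spread, possibly technical. In whole-vessel RNA, fewer cells of a type and less RNA per cell cannot be told apart.

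In smooth muscle, actin filaments pull on dense plaques at the membrane, which are built like the focal adhesions of other cells. Talin binds integrins and recruits vinculin, and alpha-actinin and filamin crosslink the actin filaments that end there. Desmin and vimentin form intermediate filaments that run between the dense bodies and the membrane. Several of these genes are known targets of serum response factor (SRF), a transcription factor that binds the CArG box in promoters of cytoskeletal and contractile genes.

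Signal for Csrp1, the cysteine- and glycine-rich LIM protein of actin bundles, was lower with rosiglitazone on both of its probe sets, 4.90-fold and 2.66-fold, with no overlap between the groups. Flna, the actin crosslinker filamin A, read 155 and 110 on rosiglitazone arrays, against 436 and 419 on vehicle arrays, but was too dim to enter the test, and the size of its difference depends on the floor set under dim values. Actn1 and Vcl had smaller differences in the same direction on their brightest probe sets (1.56-fold and 1.39-fold), and the intermediate filament gene Des, the calponin Cnn2 and the brightest probe set of Tln1 had overlapping groups. None of these differences (0 of 10 probe sets tested) passed an adjusted p of 0.05 in limma, where 0.364% of all 7134 probe sets tested did. At an unadjusted p under 0.05 there were 3 of the 10, against 10.9% of all probe sets, and 2 of these 3 belong to Csrp1. The third, of Actn1, had an unadjusted p of 0.0697 in limma with arrays centred on their medians. With no intensity trend in limma it was 0.135. In 6 of the 10 probe sets both rosiglitazone arrays lay below both vehicle arrays, a pattern seen in 21.8% of all probe sets tested, and in none (0) did both lie above, as in 19% of all. The 10 probe sets are those of 6 genes, so the counts are not of independent genes. With 1 array left out, the log2 fold change on the dimmer Csrp1 probe set ran from -3.0 to -1.58.

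Values are deposited intensities, which already shared 1 mean level across arrays, and log2 was taken after raising values under 148 to that floor. A probe set was tested when its mean log2 intensity over the 4 arrays reached that of an intensity of 414. By this rule 10 of the 15 probe sets were tested, for Des, Actn1, Cnn2, Csrp1, Vcl and Tln1. The other 5, for Vim, Flna, Zyx, Actn1 and Vcl, were dimmer and are given as values. Array medians were 591 and 620 on rosiglitazone arrays, against 648 and 635 on vehicle arrays. The 3' to 5' signal ratio of the actin control, which is high where RNA is degraded or poorly copied, was 7.74 and 9.62 on rosiglitazone arrays, against 8.88 and 11.9 on vehicle arrays. The same ratio of the Gapdh control was 8.79 and 10.8 on rosiglitazone arrays, against 11.1 and 11.1 on vehicle arrays. On all 4 arrays both controls thus read at least 7.74 times as high at the 3' end as at the 5' end. The actin ratio overlapped between the groups, whereas the Gapdh ratio was lower on both rosiglitazone arrays. The part of RNA quality in the results was not tested.

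**Figure D1:**
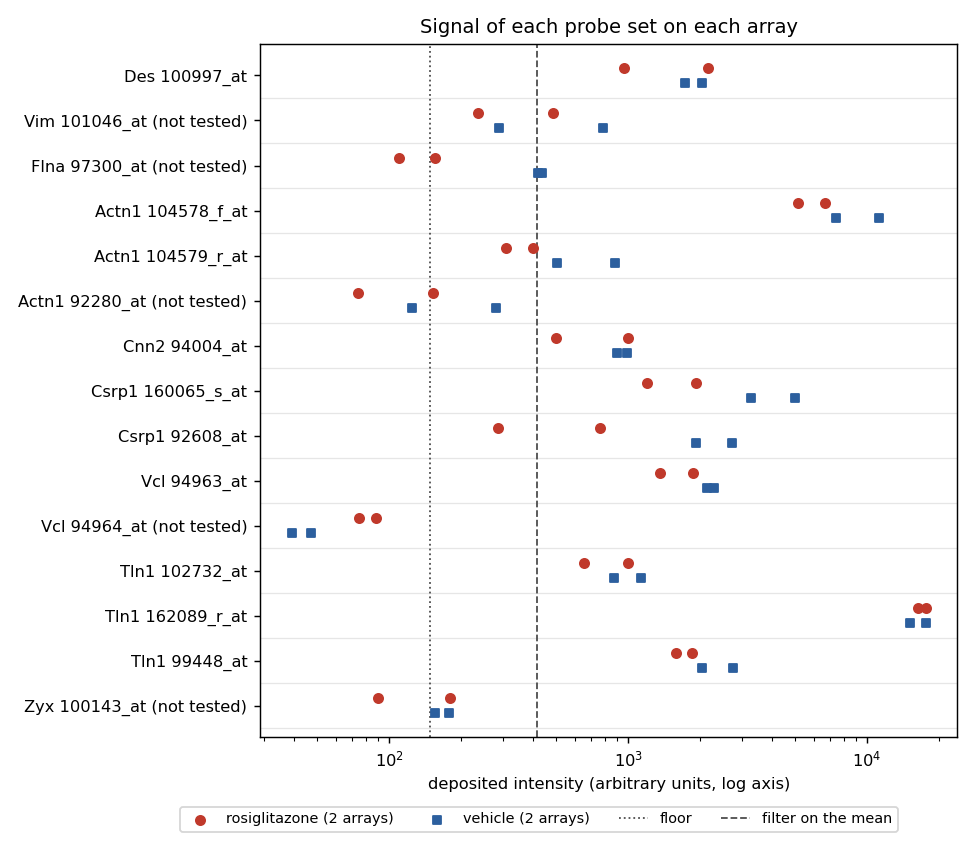
Deposited intensity (log axis) of the 15 probe sets on the 2 rosiglitazone arrays (red circles) and the 2 vehicle arrays (blue squares), with the floor of 148 (dotted) and the filter's intensity of 414 (dashed). Both Csrp1 probe sets and that of Flna have their rosiglitazone arrays well to the left of the vehicle arrays, while Des, Cnn2 and 2 of the 3 Tln1 probe sets overlap.

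Des encodes desmin, the muscle intermediate filament protein. Its probe set (100997_at) had intensities of 958 and 2163 on rosiglitazone arrays, against 2040 and 1731 on vehicle arrays. The rosiglitazone arrays thus lay on either side of both vehicle arrays. Mean log2 intensity was 10.49 ± 0.83 on rosiglitazone arrays and 10.88 ± 0.17 on vehicle arrays (SD, n = 2 each), a log2 fold change of -0.38 with a 95% interval from -1.34 to 0.57 (limma, adjusted p = 0.792). Without rosiglitazone replicate 1 the direction turned, to a log2 fold change of 0.20. Vim encodes vimentin, the intermediate filament protein of mesenchymal cells, which fibroblasts, endothelial cells and leukocytes of the vessel wall make as well. Its probe set (101046_at) read 234 and 485 on rosiglitazone arrays, against 287 and 784 on vehicle arrays. The groups overlapped, and the arrays of each group differed from each other by more than the group means did. It lay just under the filter and was not tested.

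Desmin is also a protein of striated muscle, so the markers of those tissues bear on its signal. Of 17 skeletal muscle markers on the array 10 were tested, with 4 log2 fold changes below 0 and a median of 0.01, against -0.02 over all probe sets tested. Their summed intensity was 21411 and 20899 on rosiglitazone arrays, against 21341 and 19173 on vehicle arrays. Of 10 cardiac markers 8 were tested, with 5 below 0, a median of -0.13 and sums of 28487 and 33149 on rosiglitazone arrays, against 32562 and 37242 on vehicle arrays. Both sums overlapped between the groups, as Des itself did. None (0) of these 18 marker genes passed in limma, and 1 of them, Tnnt2, had an unadjusted p under 0.05. Tnnt2 was higher with rosiglitazone, at a log2 fold change of 0.79. Among 7 other intermediate filament genes tested, 4 were below 0, the median log2 fold change was -0.06 and 0 passed, with 0 at an unadjusted p under 0.05. The lowest unadjusted p of these belonged to Dsp, the desmoplakin that anchors filaments at desmosomes (log2 fold change -0.86, adjusted p = 0.49 in limma).

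Csrp1 had the largest differences of the tested genes described here. Its protein carries LIM domains, binds alpha-actinin and zyxin, and acts as a cofactor for SRF in smooth muscle genes. Probe set 92608_at had 765 and 286 on rosiglitazone arrays, against 2716 and 1931 on vehicle arrays. Probe set 160065_s_at, whose suffix marks probes that may match more than 1 transcript, had 1919 and 1202 on rosiglitazone arrays, against 5013 and 3264 on vehicle arrays. On each of them the higher rosiglitazone array lay below the lower vehicle array. The log2 fold change was -2.29 on the first (standard error 0.53, 95% interval from -3.49 to -1.09) and -1.41 on the second (standard error 0.35, 95% interval from -2.19 to -0.63). Neither passed the adjustment over all probe sets in limma, with adjusted p = 0.116 and 0.137. Ordered from the lowest log2 fold change, these 2 were number 38 and number 196 of the 7134 tested.

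The size of the Csrp1 difference depended on which rosiglitazone array was used. On 92608_at the log2 fold change was -3.0 without rosiglitazone replicate 1 (adjusted p = 0.0188 in limma) and -1.58 without rosiglitazone replicate 2 (adjusted p = 0.102). It was -2.05 without vehicle replicate 3 and -2.54 without vehicle replicate 4, with adjusted p = 0.638 and 0.706. On 160065_s_at it ran from -1.75 to -1.08 with 1 array left out, and the adjusted p from 0.0691 to 0.672. The difference was below 0 on both probe sets in each of these fits.

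The sequence before the start of Csrp1 is shown because this gene had the largest differences, and those of Cnn2 and Vcl because they alone among the 10 genes held a CArG box in the window searched. Each window runs from 250 bases before to 50 bases after a RefSeq transcript start (RefSeq, build GRCm38.p6), all 10 genes matched by symbol, and Csrp1 and Cald1 had 2 windows each, 12 in all. Capitals mark the CArG box, which is CC, a run of 6 A or T, and GG. The windows lie at chr1:135728917-135729216 for Csrp1, chr10:79988350-79988649 for Cnn2 and chr14:20929148-20929447 for Vcl, each on the plus strand.
Csrp1: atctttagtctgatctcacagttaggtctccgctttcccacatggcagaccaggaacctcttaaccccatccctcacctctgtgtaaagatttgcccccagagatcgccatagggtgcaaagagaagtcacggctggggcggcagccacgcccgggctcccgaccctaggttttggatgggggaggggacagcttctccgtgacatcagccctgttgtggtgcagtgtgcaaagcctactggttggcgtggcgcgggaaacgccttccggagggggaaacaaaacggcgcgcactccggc
Cnn2: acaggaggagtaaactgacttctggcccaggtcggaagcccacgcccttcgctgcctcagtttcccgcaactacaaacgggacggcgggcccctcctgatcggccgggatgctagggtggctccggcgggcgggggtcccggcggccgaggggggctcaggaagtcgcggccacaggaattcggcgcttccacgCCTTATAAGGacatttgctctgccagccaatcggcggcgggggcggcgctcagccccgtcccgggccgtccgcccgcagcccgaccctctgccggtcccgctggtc
Vcl: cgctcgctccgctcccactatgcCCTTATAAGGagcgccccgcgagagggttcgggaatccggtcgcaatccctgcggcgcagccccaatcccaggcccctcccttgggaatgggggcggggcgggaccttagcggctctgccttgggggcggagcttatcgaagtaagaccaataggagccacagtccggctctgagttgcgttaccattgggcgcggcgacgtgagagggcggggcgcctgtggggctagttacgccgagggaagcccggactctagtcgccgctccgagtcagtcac
The box of Cnn2 begins 56 bases before the start and that of Vcl 227 bases before it, and both read CCTTATAAGG, which is the same on either strand. Such a box was found in 2 of the 12 windows, against 1.63% of all 32851 windows of the same length. Other motifs searched on both strands were GGGCGG, found in 8 of the 12 windows against 35.7% of all, TATAAA, in 2 against 13.6%, and CATTCC, in 3 against 14.7%. No match of a CArG box overlapped a match of these. Matches are descriptions of the letters, and Csrp1, with the largest difference, has no CArG box in either of its windows.

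Flna encodes filamin A, which joins actin filaments into networks and binds integrin tails. Its probe set (97300_at) had 155 and 110 on rosiglitazone arrays, against 436 and 419 on vehicle arrays. Both rosiglitazone arrays lay below both vehicle arrays, by more than the spread within either group, and such an order was seen in 17.9% of all 12422 probe sets. The second rosiglitazone value is under the floor, so the log2 fold change of -1.50 is pulled toward 0, and the mean over the 4 arrays lay below the filter. In limma on all 12422 probe sets without the filter, its unadjusted p was 0.00218 and its adjusted p 0.284, in a fit where 0% of probe sets passed and 9.68% had an unadjusted p under 0.05. The value moved with the floor, to -0.74 with a floor of 256, which both rosiglitazone values lie under, and -1.71 with none.

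Actn1 encodes the alpha-actinin that crosslinks actin at dense bodies and adhesions. Its brightest probe set (104578_f_at, whose suffix marks probes shared with a sequence family) had 5132 and 6642 on rosiglitazone arrays, against 7384 and 11251 on vehicle arrays. Probe set 104579_r_at, made from the same expressed sequence with relaxed design rules, had 401 and 309 on rosiglitazone arrays, against 502 and 880 on vehicle arrays. On both, the rosiglitazone arrays lay below the vehicle arrays, and vehicle replicate 4 was the highest array. The log2 fold changes were -0.64 with a 95% interval from -1.25 to -0.04 (limma, unadjusted p = 0.039, adjusted p = 0.43) and -0.92 with an interval from -2.53 to 0.69 (adjusted p = 0.701). Without vehicle replicate 4 the first was -0.34 and the second -0.51, and without vehicle replicate 3 they were -0.95 and -1.32. The third probe set, 92280_at, had 74 and 152 on rosiglitazone arrays, against 280 and 124 on vehicle arrays, with overlap and 1 array of each group under the floor, and was not tested.

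Cnn2 encodes calponin 2, an actin-binding protein found in smooth muscle and in many other cells. Its probe set (94004_at) had 1001 and 500 on rosiglitazone arrays, against 896 and 991 on vehicle arrays. The first rosiglitazone array was thus the highest of the 4 and the second the lowest. The log2 fold change was -0.41 with a 95% interval from -1.58 to 0.76 (limma, adjusted p = 0.826). Leaving out rosiglitazone replicate 1 gave -0.91, and leaving out rosiglitazone replicate 2 gave 0.087.

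Vcl encodes vinculin, which links talin to actin when the adhesion is under load. Its brighter probe set (94963_at) had 1863 and 1365 on rosiglitazone arrays, against 2298 and 2141 on vehicle arrays. Both rosiglitazone arrays lay below both vehicle arrays, at a mean log2 intensity of 10.64 ± 0.32 on rosiglitazone arrays and 11.12 ± 0.07 on vehicle arrays (SD, n = 2 each). The log2 fold change of -0.48 had a 95% interval from -1.20 to 0.24 (limma, adjusted p = 0.636), and it ran from -0.70 to -0.25 with 1 array left out. The other probe set (94964_at) read 88 and 75 on rosiglitazone arrays, against 47 and 39 on vehicle arrays. All 4 values lie under the floor, where values have no order, and no fold is given.

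Tln1 encodes talin 1, which connects integrins to actin. Its probe sets differed among themselves. Probe set 99448_at, made from a talin cDNA, had 1844 and 1587 on rosiglitazone arrays, against 2030 and 2758 on vehicle arrays, lower on both rosiglitazone arrays. Its log2 fold change was -0.47 with a 95% interval from -1.18 to 0.24 (limma, adjusted p = 0.636). Probe set 102732_at, with 651 and 998 on rosiglitazone arrays, against 873 and 1127 on vehicle arrays, overlapped between the groups (log2 fold change -0.30, interval from -1.35 to 0.75). The brightest, 162089_r_at, had 16366 and 17586 on rosiglitazone arrays, against 15128 and 17624 on vehicle arrays, and its log2 fold change of 0.06 had the narrowest interval of the 10 tested, from -0.40 to 0.51. Its sign turned negative under quantile normalization (-0.064) and without vehicle replicate 3 (-0.055). On this probe set the interval leaves out a difference as large as that of either Csrp1 probe set. However, its suffix marks relaxed design rules, and it read far above the other Tln1 probe sets. Whether all of its signal comes from Tln1 was not tested. It stands for Tln1 in the median over genes, which was also -0.44 with the mean of each gene's tested probe sets.

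Zyx encodes zyxin, a LIM protein of focal adhesions that moves to the nucleus or to stretched actin fibres. Its probe set (100143_at) read 90 and 179 on rosiglitazone arrays, against 177 and 156 on vehicle arrays. These values overlapped and lay close to or under the floor, so a difference was not detectable at this signal.

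**Figure D2:**
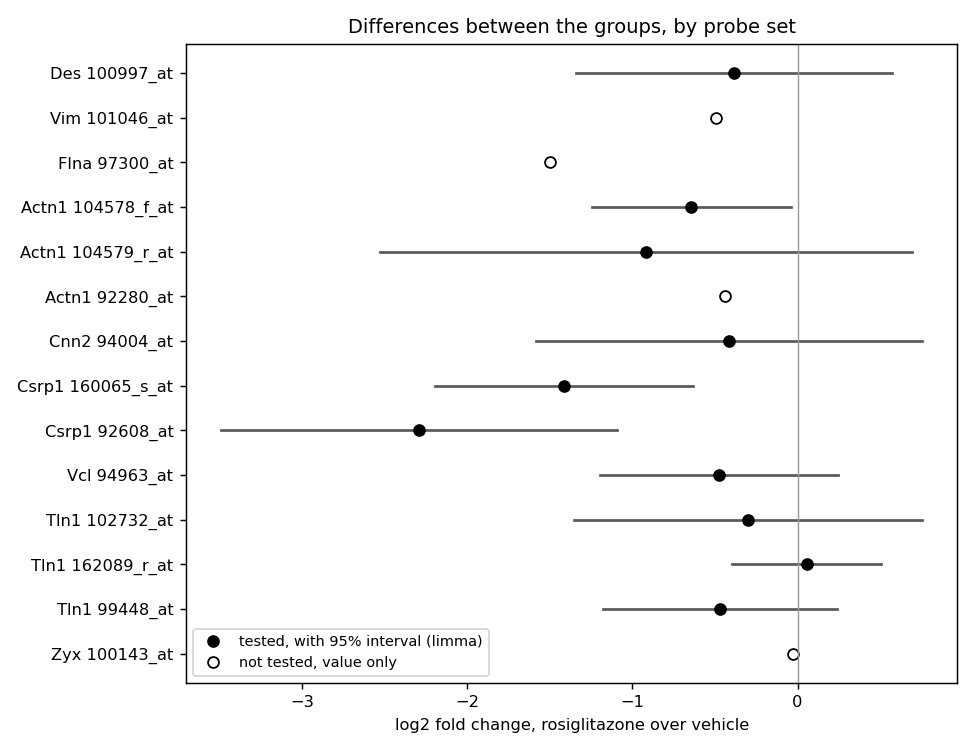
Log2 fold change (rosiglitazone over vehicle) of each probe set, filled with its 95% interval from limma where tested and open where not. The intervals of both Csrp1 probe sets and of the brightest Actn1 probe set lie below 0, before adjustment over all probe sets, and the Vcl probe set with all 4 arrays under the floor is left out.

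**Figure D3:**
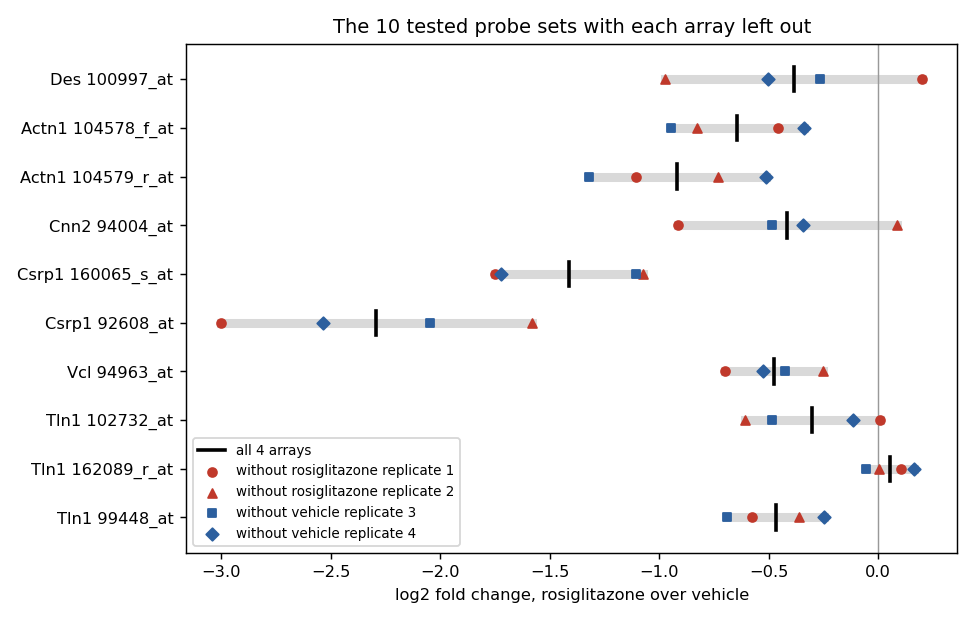
Log2 fold change (rosiglitazone over vehicle) of the 10 probe sets tested, with all 4 arrays (black bars) and with each array left out (symbols). Csrp1, Actn1, Vcl and Tln1 99448_at stay below 0 in each fit, while Des, Cnn2 and the other Tln1 probe sets reach or cross 0.

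Over the 6 genes tested, on the brightest probe set of each, the median log2 fold change was -0.44, with 5 genes below 0. Over all probe sets tested the median was -0.02 and 51.9% lay below 0. The SD between the arrays of a group of the genes' median log2 intensity was 0.19. The smooth muscle contractile genes, with the genes above left out, had a median of -1.12, and 11 of 11 tested were below 0. Among these 11, Tagln, the actin-binding transgelin, fell to 13947 and 11127 with rosiglitazone, against 30220 and 29615 with vehicle (limma, adjusted p = 0.0455), and the other 10 did not pass. Its adjusted p over the alternatives ran from 0.0156 to 0.672, and the call was lost when either vehicle array was dropped, at -1.25 without replicate 3 and -1.28 without replicate 4, and also with no floor, no filter, no intensity trend or centred arrays. Cnn1, the smooth muscle calponin, had 2547 and 2778 on rosiglitazone arrays, against 6829 and 6549 on vehicle arrays (log2 fold change -1.33, adjusted p = 0.0674), lower on both rosiglitazone arrays. The difference between the medians of the 2 lists was not tested.

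Other focal adhesion genes had 15 of 19 tested below 0 and a median log2 fold change of -0.32, and 0 passed in limma, with 3 lower at an unadjusted p under 0.05. These 3 were Dstn, Itgav and Lpp. Dstn, the actin-severing destrin (log2 fold change -1.16, adjusted p = 0.0687), was counted in this list although it acts on actin filaments. Itgav is an integrin alpha subunit (-1.03 on its brightest probe set, adjusted p = 0.105), and Lpp a LIM protein related to zyxin (-1.32, adjusted p = 0.122). The probe sets of Itgav disagreed. Its brightest, 104386_f_at, had 3686 and 3363 on rosiglitazone arrays, against 7685 and 6756 on vehicle arrays, while 98366_at, too dim to be tested, had 279 and 406 on rosiglitazone arrays, against 99 and 60 on vehicle arrays. The remaining one, 104385_i_at, overlapped between the groups (log2 fold change 0.84, adjusted p = 0.755). Lpp had 2980 and 1678 on rosiglitazone arrays, against 5269 and 5879 on vehicle arrays, so the groups did not overlap. Other genes of the actin cytoskeleton had 25 of 33 below 0 and a median of -0.24, and 0 passed, with 6 lower and 1 higher at an unadjusted p under 0.05. The 4 with the smallest p were Cnn3, the calponin 3 (log2 fold change -1.23, adjusted p = 0.0788), Tmsb4x, the actin-sequestering thymosin beta 4 (-1.03, adjusted p = 0.105), the cytoplasmic actin Actg1 (-0.86, adjusted p = 0.105) and the tropomyosin Tpm4 (-0.81, adjusted p = 0.196).

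Relatives of the genes described here had values of both kinds. Cnn3 had 2403 and 2516 on rosiglitazone arrays, against 5682 and 5859 on vehicle arrays, and Cnn1 was likewise lower on both rosiglitazone arrays, whereas Cnn2 overlapped. Csrp2, the smooth muscle LIM protein most like Csrp1, had 10335 and 8867 on rosiglitazone arrays, against 13342 and 11333 on vehicle arrays, a log2 fold change of -0.36 (limma, adjusted p = 0.585). Actn4, the alpha-actinin of non-muscle cells, had 3172 and 2992 on rosiglitazone arrays, against 2433 and 3674 on vehicle arrays, with overlap and a log2 fold change of 0.04 (adjusted p = 0.975). The differences between relatives were not tested.

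The summed intensities of the adipocyte, macrophage, and fibroblast and matrix marker lists did not overlap between the groups. Among all single probe sets tested, 21.8% were lower and 19% higher with no overlap. On their brightest probe sets 1 of 8 brown and 0 of 11 white adipocyte markers passed in limma. So did 1 of 15 macrophage and 1 of 14 fibroblast and matrix markers, against 0.364% of all probe sets tested. These lists were chosen with earlier results of these data known. Neutrophil markers did not overlap either, with sums of 12368 and 10122 on rosiglitazone arrays, against 136329 and 201400 on vehicle arrays. Most of these vehicle sums came from 2 genes, S100a8 (76047 and 131937) and S100a9 (45381 and 55514). Of the 11 neutrophil genes tested, 6 were lower on both rosiglitazone arrays, and the others overlapped. Lymphocyte marker sums also did not overlap, with 8434 and 7558 on rosiglitazone arrays, against 10295 and 9312 on vehicle arrays. The sums of the endothelial, erythrocyte and Schwann cell markers overlapped. Most of the erythrocyte sum was Hba-a1, with 467487 and 616423 on rosiglitazone arrays, against 493863 and 569180 on vehicle arrays. Of the 5 erythrocyte genes tested, 3 were lower on both rosiglitazone arrays and 2 had log2 fold changes above 0. Brown adipocyte markers had 7 of 8 tested above 0, with a median difference of 0.39 on the log2 scale, with Fabp3 called higher, and a summed intensity of 418270 and 457458 on rosiglitazone arrays, against 302445 and 296832 on vehicle arrays. White adipocyte markers had 7 of 11 above 0 (median 0.34), 3 of them higher at an unadjusted p under 0.05, with sums of 430398 and 459978 on rosiglitazone arrays, against 360111 and 369201 on vehicle arrays. Adipoq, the fat cell hormone adiponectin, had 165554 and 195068 on rosiglitazone arrays, against 125080 and 136822 on vehicle arrays, so fat cell RNA was present on all 4 arrays of this aortic RNA. Macrophage markers had 15 of 15 below 0 (median -0.77), with Cd14 called lower and sums of 33782 and 31003 on rosiglitazone arrays, against 76804 and 81145 on vehicle arrays. Fibroblast and matrix markers had 13 of 14 below 0 (median -0.66), with Mgp called lower and sums of 109572 and 126081 on rosiglitazone arrays, against 168013 and 198741 on vehicle arrays. The contractile genes summed to 67616 and 72266 on rosiglitazone arrays, against 134999 and 161214 on vehicle arrays. The calls of Fabp3 (log2 fold change 1.55), Cd14 (-2.93) and Mgp (-1.32) were each lost without vehicle replicate 3 (at 1.70, -2.91 and -1.43) and without vehicle replicate 4 (at 1.39, -2.95 and -1.22), and also with no filter or no intensity trend. That of Mgp was lost with no floor (adjusted p = 0.0505) and with arrays centred on their medians (adjusted p = 0.0866) as well. In the adipocyte, macrophage, fibroblast and matrix, and contractile lists no gene (0) was under the floor on all arrays. Sums are led by their brightest probe sets. The part of these cell types in the lower signal of Csrp1, Flna, Actn1 and Vcl was not tested.

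**Figure D4:**
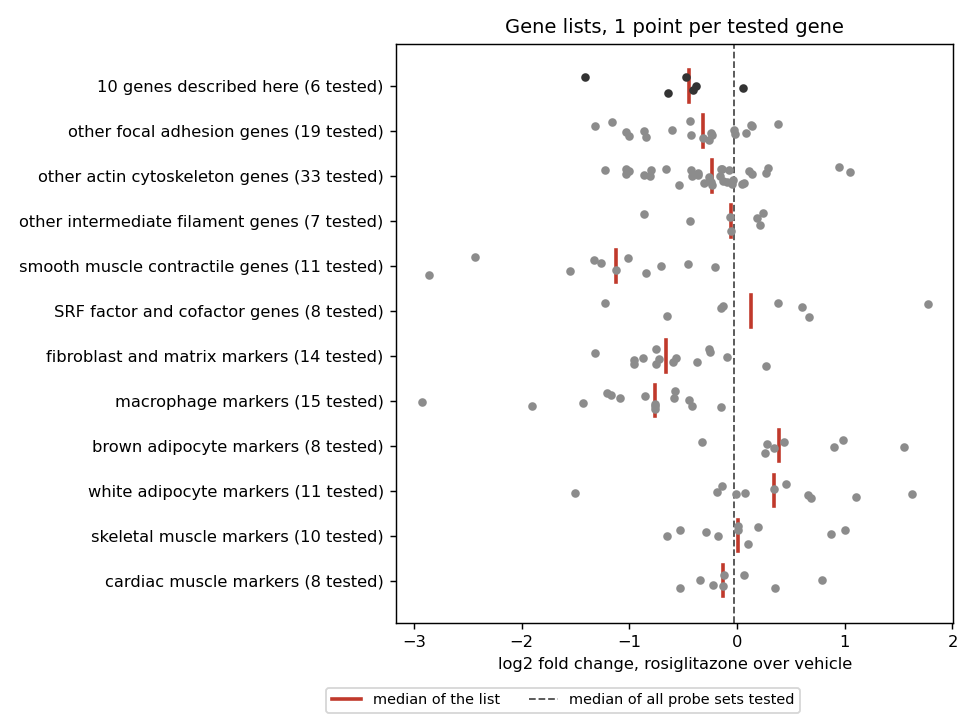
Log2 fold change (rosiglitazone over vehicle) of each tested gene on its brightest probe set, by list, with list medians (red) and the median of all probe sets tested (dashed). The median of the 10 genes described here, 6 of them tested, is -0.44, between those of the contractile genes (-1.12) and of the other actin cytoskeleton genes (-0.24). The medians of the macrophage (-0.77), fibroblast and matrix (-0.66) and other focal adhesion (-0.32) lists lie in the same range, while both adipocyte lists have medians above 0.

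The mean profile of the 6 genes tested, each centred on its own mean log2 intensity, was -0.23 and -0.31 on rosiglitazone arrays, against 0.27 and 0.27 on vehicle arrays. Of 6383 other named probe sets tested, the 5 nearest to it over the 4 arrays were those of Ppp2r5c, Marveld1, Msrb1, Apoe and Gpx3, at Euclidean distances from 0.03 to 0.07 on the log2 scale. Each of the 6 genes lay farther from their own mean profile than these, from 0.28 for Vcl to 1.06 for Csrp1. Apoe, the apolipoprotein E, had 79071 and 76328 on rosiglitazone arrays, against 109143 and 108601 on vehicle arrays. Over 4 arrays such nearness is a description, with no test.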

How the data were processed

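RNA abundance was measured on Affymetrix MG-U74Av2 arrays, the platform that the probe table names, in 4 samples of pooled aortic RNA, 2 per group. The authors deposited 1 intensity per probe set and array, on a linear scale. The software and background correction are not given in the sources used here. After trimming 2% of the values from either end, every array had a mean of 1501, so the deposited values were scaled already. Detection calls were not used here, and the number of arrays limits the precision.

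Control probe sets (66 of 12488) were left out. Values under 148, the pooled 20th percentile, were set to 148 before log2. Probe sets whose mean log2 intensity reached the pooled 40th percentile, an intensity of 414, were tested: 7134 in all. Groups were compared with limma 3.58.1 in R 4.3.3 (lmFit, then eBayes with trend = TRUE), two-sided, and p-values were adjusted by Benjamini-Hochberg over all probe sets tested. The model has 2 residual degrees of freedom and a median prior of 7.14. An exact permutation test cannot go below p = 0.333 with 3 splits of the arrays. Symbols came from the platform's annotation, with identifiers looked up in RefSeq genes of GRCm38.p6. Among non-control probe sets 10833 had 1 symbol, 396 several and 1193 none.

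The 10 genes and all gene lists were chosen with earlier results of these data known. Every probe set of the 10 genes is given. From the lists, genes called and up to 4 with the smallest p could be named, and of the contractile genes also Acta2, Myh11, Tagln and Cnn1. Lists are described by counts and medians on the brightest tested probe set of each gene. The genes of like profile were the 5 nearest by Euclidean distance. Alternatives were other floors, no filter, quantile normalization, centring of arrays, no intensity trend, each array left out, and the mean of a gene's probe sets.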

Additional observations from a re-analysis of the deposited data

How the results depend on the processing

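With all 4 arrays kept, the 10 tested probe sets had 0 calls in limma under every alternative. The count over all probe sets, 26, was 17 with no floor, 17 with arrays centred on their medians, 7 with no intensity trend and 0 with no filter (1202 of 12422 then had an unadjusted p under 0.05), and ranged from 1 to 78 with 1 array left out. The median log2 fold change of the 6 genes, -0.44, ran from -0.58 to -0.36 over the alternatives. Among the tested probe sets, directions turned for Des without rosiglitazone replicate 1 (range with 1 array left out -0.97 to 0.20), Cnn2 without rosiglitazone replicate 2 (-0.91 to 0.087), Tln1 102732_at without rosiglitazone replicate 1 (-0.61 to 0.0088), and Tln1 162089_r_at without vehicle replicate 3 (-0.055 to 0.17) and under quantile normalization (-0.064). Among those too dim to be tested, Vim turned to 0.032 without rosiglitazone replicate 1 and 0.23 without vehicle replicate 4 (-1.22 to 0.23), Actn1 92280_at to 0.019 without vehicle replicate 3, and Zyx, at -0.03, to at most 0.11 (without rosiglitazone replicate 1). Each leave-one-out fit has a group of 1 array, assumed to vary like the other group. The cause of these changes was not tested. Dim signal limits Vim, Flna, Zyx and the weaker probe sets of Actn1 and Vcl. No paired analysis was possible because the groups share no replicate numbers.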

Other observations

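In the list of SRF and of factors that work with it on muscle genes, 8 genes were tested, and Srf itself was not among them. Of these 8, 4 were below 0 and 4 above, with a median log2 fold change of 0.13. In limma 0 passed, with 1 lower and 1 higher at an unadjusted p under 0.05. Mef2a, a MADS-box factor of muscle genes, had 1937 and 1232 on rosiglitazone arrays, against 3406 and 3847 on vehicle arrays (log2 fold change -1.23, adjusted p = 0.164). Gata6, a zinc finger factor of vascular smooth muscle, had 778 and 1048 on rosiglitazone arrays, against 424 and 165 on vehicle arrays (1.77, adjusted p = 0.438). Wwtr1, the YAP partner TAZ, which responds to tension in the cytoskeleton, had 3579 and 5499 on rosiglitazone arrays, against 2449 and 3179 on vehicle arrays (0.67, adjusted p = 0.459). These are the brightest probe sets of the 3 genes, on which the groups did not overlap, and their other probe sets did not all go the same way. Gata6 93925_at, too dim to be tested, went the other way, with 117 and 115 on rosiglitazone arrays, against 796 and 305 on vehicle arrays, and a further Gata6 probe set, 160662_r_at, had 400 and 461 on rosiglitazone arrays, against 379 and 371 on vehicle arrays. Wwtr1 103100_at overlapped between the groups (log2 fold change -0.44, adjusted p = 0.855), as did the dim Mef2a probe set 94133_r_at.

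Among other lists, endothelial markers had 6 of 8 tested below 0 (median -0.32), neutrophil markers 10 of 11 (median -0.69, with S100a8 and S100a9 called lower), lymphocyte markers 4 of 5 (median -0.77), erythrocyte markers 3 of 5 (median -0.73) and Schwann cell markers 2 of 6 (median 0.20). In the endothelial, lymphocyte, erythrocyte and Schwann cell lists 0 genes passed in limma. At an unadjusted p under 0.05 there were 1 lower and 1 higher endothelial, 1 lower lymphocyte, 3 lower erythrocyte and 0 Schwann cell genes. Of all probe sets tested, 10.9% had such a p. Dimmer probe sets of 2 other neutrophil genes also passed in limma. Lcn2 160564_at had 145 and 57 on rosiglitazone arrays, both under the floor, against 3982 and 5054 on vehicle arrays (adjusted p = 0.00214), and Il1r2 161689_f_at had 303 and 478 on rosiglitazone arrays, against 3064 and 3057 on vehicle arrays (adjusted p = 0.0209). The brightest probe sets of these genes did not pass (Lcn2 161684_r_at, adjusted p = 0.516, and Il1r2 102658_at, adjusted p = 0.0744). Dropping vehicle replicate 3 or 4 ended the call of S100a8, at -6.79 and -6.00, and those of Lcn2 and Il1r2, and not that of S100a9. With no filter the calls of all 4 genes were lost, that of S100a9 at adjusted p = 0.199, and with no intensity trend those of S100a8 (adjusted p = 0.0905) and Il1r2 (adjusted p = 0.156).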
